A study of Homo sapiens with 47 samples.

Results

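The regions described here lie in windows around 6 histone chaperone genes. They were every ATAC-seq peak, every H3K27ac peak, every H3K9me3 island and every interval of a deposited interval table that overlapped 1 of 6 windows of the human genome build hg19. The windows were chr19:4380000-4460000 for CHAF1A, chr21:37740000-37810000 for CHAF1B, chr1:33100000-33160000 for RBBP4, chr6:119200000-119250000 for ASF1A, chr19:14210000-14270000 for ASF1B and chr22:19300000-19440000 for HIRA. After overlapping peaks of all libraries were merged into regions, the windows held 88 of 389373 regions: 40 of 208946 for ATAC-seq, 42 of 93938 for H3K27ac, 5 of 84641 for H3K9me3 and 1 of 1848 deposited intervals. Within the windows a region was taken by its position alone, whatever its score or calls. Regions are numbered along the chromosome within each window and assay.

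The series profiled the human melanoma cell lines 451Lu and WM983B, each as parental cells and as cells resistant to the BRAF inhibitor vemurafenib. Parental and resistant 451Lu were profiled by ATAC-seq, in which the transposase Tn5 tags open chromatin, and by ChIP-seq for H3K27ac, a mark of active promoters and enhancers, and for H3K9me3, a mark of heterochromatin. WM983B was profiled by ATAC-seq and H3K27ac. Of 47 samples, 32 had a file used here, namely 20 ATAC-seq, 4 H3K27ac and 8 H3K9me3 libraries. The remaining 451Lu groups were genetically changed cells without a stated drug response. AP1 cells over-expressed the AP-1 subunits c-JUN and c-FOS, with the vector group as control. Cells of the shp150 group carried a short hairpin RNA against p150 and had the NT group as control. Cells of the shp150_AP1 group carried both changes and had vector_NT, with both controls, as counterpart. Groups had 2 libraries each in ATAC-seq and H3K9me3 and 1 library with a file in H3K27ac. The labels name no promoter, hairpin sequence, clone or drug dose for any group, and do not say whether replicates are separate cultures, so their spread may be technical only.

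Histone chaperones escort histones to and from DNA and so decide where new nucleosomes form. CAF-1, made of CHAF1A (the large subunit, known as p150), CHAF1B (p60) and the shared histone-binding protein RBBP4, deposits H3 and H4 on newly replicated DNA. ASF1A and ASF1B hand H3-H4 dimers to CAF-1 and to HIRA, and the HIRA complex places the variant H3.3 outside replication. CHAF1A is therefore the gene that a hairpin against the p150 subunit of CAF-1 would target. Chromatin calls at its window do not measure its RNA or protein, the RNA libraries were not analysed here, and the labels do not spell out the hairpin's target beyond p150.

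The DNA just upstream of a gene start is shown for the genes whose windows held a changed open region in 451Lu, namely CHAF1A, CHAF1B and ASF1B. Each line gives the 250 bases before the start in the RefSeq promoter table of build GRCh38.p14, 5′ to 3′ along the gene, at chr19:4402390-4402639 (+) for CHAF1A, chr21:36385142-36385391 (+) for CHAF1B and chr19:14136590-14136839 (-) for ASF1B. Capitals mark matches on either strand to 3 motifs: CCAAT (the CCAAT box, read ATTGG on the other strand), GCGGGAA (an E2F core, read TTCCCGC) and TGANTCA (the AP-1 site bound by JUN and FOS dimers).
CHAF1A: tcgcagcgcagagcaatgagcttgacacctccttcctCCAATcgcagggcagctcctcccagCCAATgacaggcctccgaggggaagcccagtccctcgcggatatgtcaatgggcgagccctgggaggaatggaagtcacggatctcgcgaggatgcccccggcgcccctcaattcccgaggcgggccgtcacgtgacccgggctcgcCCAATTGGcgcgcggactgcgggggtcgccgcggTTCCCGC
CHAF1B: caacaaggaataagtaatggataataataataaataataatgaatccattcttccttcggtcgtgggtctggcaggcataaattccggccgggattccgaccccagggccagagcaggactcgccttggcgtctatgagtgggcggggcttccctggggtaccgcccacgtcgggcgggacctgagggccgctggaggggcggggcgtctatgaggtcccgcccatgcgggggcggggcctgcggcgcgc
ASF1B: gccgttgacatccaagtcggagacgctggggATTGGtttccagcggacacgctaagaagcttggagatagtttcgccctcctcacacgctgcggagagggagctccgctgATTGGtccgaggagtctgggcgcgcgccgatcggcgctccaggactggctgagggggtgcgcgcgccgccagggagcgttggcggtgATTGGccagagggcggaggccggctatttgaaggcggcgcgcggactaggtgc

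CHAF1A held 4 CCAAT box matches, which included an overlapping pair beginning 41 and 38 bases before the start, and 1 E2F core match beginning 7 bases before it. ASF1B held 3 CCAAT box matches, all on the reverse strand, and CHAF1B held none of the 3 motifs. All 6 genes matched the table. The first RBBP4 entry held 2 CCAAT box matches, HIRA held 1 E2F core match, and ASF1A held none of the motifs. No AP-1 match occurred in any of these windows of 250 bases. Among 35116 promoters of the table the CCAAT box occurred in 32.0%, the E2F core in 5.52% and the AP-1 motif in 6.57%. The bases before these starts were rich in G and C, at 68% for CHAF1A, 62% for CHAF1B, 66.8% for ASF1B, 71.6% for ASF1A and 77.2% for HIRA, beside a median of 58% over the table. These coordinates belong to a newer build than the peak lists, so no listed region was placed on a gene start, an exon or an intron. A region named after a gene below lies in that gene's window and may belong to a neighbouring gene.

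The lists differed in length between groups, which touches every count that follows. The 451Lu ATAC-seq lists of parental, resistant, shp150_AP1 and vector_NT cells held 79670 to 94550 peaks. Those of AP1, vector, NT and shp150 cells held 42898 to 56824, with shp150 shortest at 43406 ± 718 (SD, n = 2). The WM983B lists held 129339 to 147988 peaks and reached down to smaller scores (1.303 to 1.317, against 2.001 to 2.036 in 451Lu). In WM983B, the base overlap (Jaccard index) was 0.578 between parental and resistant libraries numbered 1 and 0.609 between those numbered 2, but 0.510 between the parental and 0.509 between the resistant replicates, so these libraries were more alike by number than by group. Peak lists carry no sequencing depth, and no 2 lists were identical. An exact two-sided permutation of 2 libraries against 2 gives no p below 0.333 and cannot pass 0.05, so region calls are given as counts beside the share over all regions. In bulk cells, a region open in fewer cells and a region less open in each cell cannot be told apart.

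Every one of the 6 windows held at least 1 region of open chromatin that was listed in all 20 ATAC-seq libraries. These constant regions made up 11 of 40 (27.5%), beside 11.7% of all regions. They were 1 in the CHAF1A window, 3 in CHAF1B, 1 in RBBP4, 1 in ASF1A, 2 in ASF1B and 3 in HIRA. Their median width was 1306 bp, beside 992 bp for all 24404 constant regions. At the other end, 7 of 40 regions (17.5%) were listed in 1 library only, beside 25.5% of all regions. A further 9 (22.5%) regions, some of them among those 7, were listed in WM983B libraries and in no 451Lu library, beside 37.6% of all regions. None was listed in all 451Lu and no WM983B libraries, a pattern of 0.234% of all regions. Since the windows were set on genes and all regions were not, these shares are not particular to chaperone genes by this comparison. The part of gene placement in them was not tested.

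**Figure D1:**
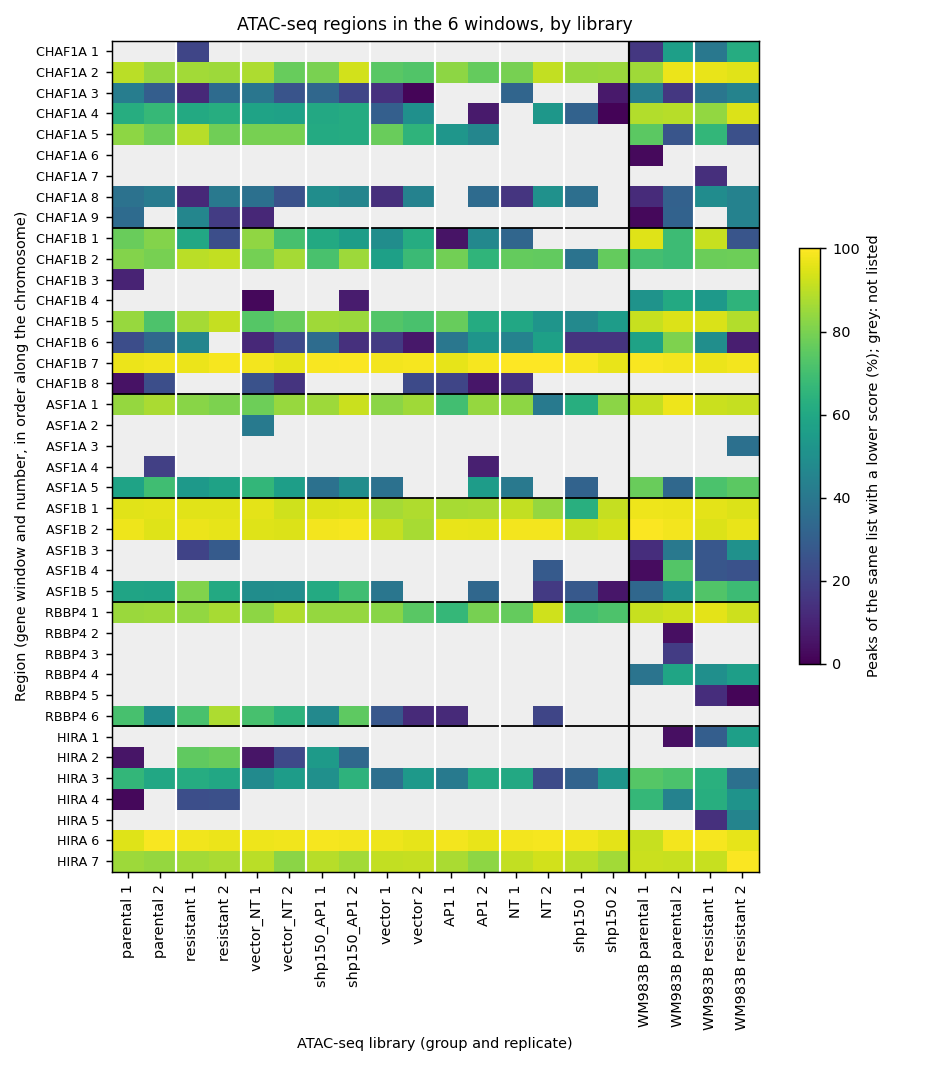
Each row is 1 of the 40 ATAC-seq regions, each column a library, and colour gives the percent of peaks in the same list with a lower score (grey: not listed). Unlabelled columns to the left of the black line are 451Lu groups. Complete rows mark the 11 regions listed in all 20 libraries, and CHAF1B 7, ASF1B 2 and HIRA 6 stay near the top of each list.

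The strongest constant regions of the CHAF1B, HIRA and ASF1B windows stood high in every list. The score is the authors' own peak value with no common scale between lists, so each region was placed within its list by the percent of peaks that scored lower. CHAF1B region 7 (chr21:37802084-37803016, 933 bp) scored higher than 96.3% to 99.8% of peaks over the 20 libraries. HIRA region 6 (chr22:19418165-19420418, 2254 bp) followed with 91.5% to 98.9%, and ASF1B region 2 (chr19:14247206-14248511, 1306 bp) with 86.8% to 99.3%. These 3 regions were among the upper peaks of every library, hairpin and resistant cells included. They were picked as the best-placed of their windows in these same lists. The share of all constant regions that stood so high was not determined.

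The leading regions of the other windows varied more between libraries. CHAF1A region 2 (chr19:4385709-4386512) outscored 72.7% to 97.1% of peaks, RBBP4 region 1 (chr1:33115892-33117293) 66.4% to 95.9%, and ASF1A region 1 (chr6:119214957-119216446) 41.3% to 97.4%. The low end of ASF1A region 1 was NT replicate 2, with a score of 7.54, whereas parental 451Lu replicate 2 was highest at 43.0. The window of ASF1A, the broadly expressed form of the chaperone, had no second region that was listed in all libraries, and neither had those of CHAF1A and RBBP4.

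All 20 libraries listed a larger share of the chaperone regions than of all regions. The share was 58.8% in parental and 60% in resistant 451Lu, beside 38.6% and 43.0% of all regions (means of n = 2). It was 70% in parental and 73.8% in resistant WM983B, beside 56.2% and 56.3%. In shp150 cells, 15.5 ± 0.707 of the 40 regions were listed (SD, n = 2; 38.8%, beside 19.7% of all), and in their NT controls 17 in each library (42.5%, beside 24.8%). The lowest count of chaperone regions thus fell in the group with the shortest lists. Here too the windows were set on genes and all regions were not, and the part of that in the larger shares was not tested.

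**Figure D2:**
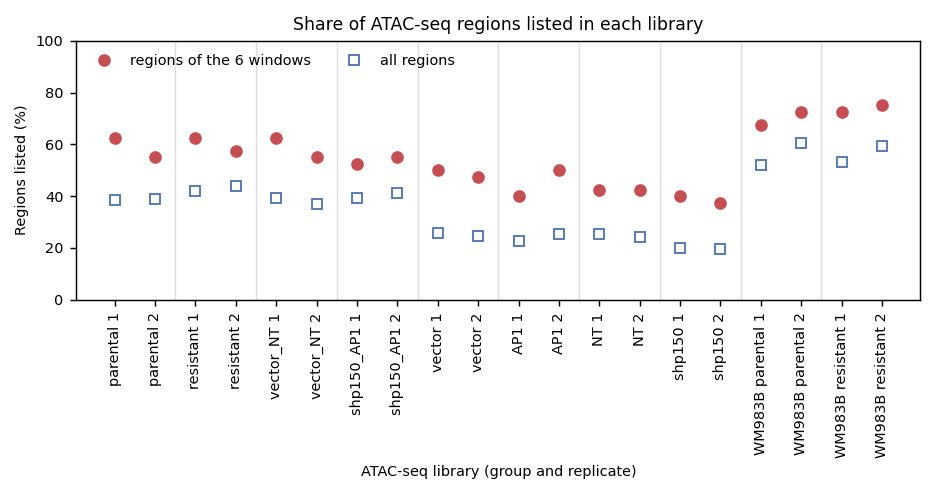
The vertical axis gives the percent of regions listed in each ATAC-seq library, with filled circles for the 40 regions of the 6 windows and open squares for all 208946 regions. Circles lie above squares in all 20 libraries, and both are lowest in shp150 replicate 2.

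The CAF-1 subunit genes are taken first. In the CHAF1B window, resistant 451Lu cells lost 1 open region, and the same stretch was lost in shp150_AP1 cells. This was CHAF1B region 8 (chr21:37807574-37808034, 461 bp). It scored 4.003 and 7.28 in the parental, 7.18 and 6.001 in the vector_NT and 6.08 and 4.29 in the AP1 libraries, and was in neither resistant, neither shp150_AP1 and neither shp150 library. One of 2 NT libraries (5.40) and 1 of 2 vector libraries (6.14) listed it, and no WM983B library did. All 8 libraries that listed it were thus control or AP1 libraries. The lack of overlap between groups in the resistant and shp150_AP1 comparisons is the rule by which it was called lost. No other of the 208946 regions had exactly this pattern of calls over the 20 libraries. That pattern includes calls in 1 of 2 NT and 1 of 2 vector libraries, and the share of regions with a pattern of their own was not determined.

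Lost regions were 1 of 28 in the windows (3.57%) for resistant against parental 451Lu, beside 3.96% of all 114302 regions, and 1 of 26 (3.85%) for shp150_AP1 against vector_NT, beside 3.26% of 108325. Both counts are near the background. Of all regions lost in resistant 451Lu, 18.2% overlapped a region lost in shp150_AP1 cells, and 23.4% of the latter overlapped the former. The peaks of CHAF1B region 8 were low ones, since 4.85% to 25.0% of peaks in their lists scored lower, and the loss was no longer counted in either comparison when the better-scoring 50% of each list was used. In the resistant comparison the count of lost regions was 2 without resistant replicate 1, parental replicate 1 or parental replicate 2, and in the shp150_AP1 comparison it was 4 without vector_NT replicate 2. CHAF1B region 8 was among the lost regions whichever single library was left out of either comparison.

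H3K27ac at the same place followed the 451Lu ATAC-seq calls. CHAF1B H3K27ac region 8 (chr21:37807971-37808390), which shares 49 bp with the lost ATAC-seq region, scored 10.2 in parental 451Lu and was absent from the resistant 451Lu list and from both WM983B lists. It was the only H3K27ac region of the CHAF1B window that the parental 451Lu library alone listed. Over the genome, 1.63% of the 4527 ATAC-seq regions lost in resistant 451Lu overlapped an H3K27ac region listed only in the parental library. H3K27ac had 1 library a group, so this difference has no replicate check.

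Elsewhere in the CHAF1B window H3K27ac was listed in resistant 451Lu where the parental list had none or less. Region 5 (chr21:37801751-37802299), which overlaps the constant ATAC-seq region 7, scored 7.52 in parental and 50.9 in resistant 451Lu, and 14.2 and 19.2 in parental and resistant WM983B. Regions 6 and 7 beside it scored 16.4 and 19.3 in resistant 451Lu and were not in the parental list. Region 3 (chr21:37757669-37758205), which had the highest H3K27ac score of the windows in both 451Lu libraries and in parental WM983B, ran the other way, with 91.2 in parental and 67.6 in resistant 451Lu and 57.0 and 25.1 in WM983B. Thus the same window held H3K27ac scores that were higher in the resistant 451Lu list at one stretch and lower at another. Regions 3 and 5 were chosen after their values were seen. Scores have no common scale between lists, and the parental and resistant 451Lu lists held 32304 and 51710 peaks. With 1 library a group there is no replicate check, and the share of all regions with such differences was not determined.

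Also at CHAF1B, region 1 (chr21:37749408-37750088), chosen after its values were seen, was open in 17 of 20 libraries with uneven scores. It scored 30.0 and 35.3 in parental against 17.2 and 6.99 in resistant 451Lu, and 33.3 and 22.8 in vector_NT against 15.2 and 13.7 in shp150_AP1. Vector libraries gave 10.3 and 12.8 against 4.17 and 9.42 in AP1, NT gave 7.73 in 1 library, and shp150 listed none. In these comparisons within 451Lu the control and treated scores did not overlap where both groups listed the region. The share of all regions with such a separation was not determined, so this is a description of 1 picked region. In WM983B, whose libraries were more alike by number, the score was 25.5 in parental and 22.1 in resistant replicate 1, and 10.9 and 5.54 in replicate 2. It was lower in the resistant library of both numbers, although the groups overlapped. Scores of separate lists have no common scale and no test was made of them. H3K27ac region 1, overlapping this stretch, was listed in WM983B only, at 27.1 in parental and 5.84 in resistant cells.

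The summed length of open chromatin listed in the CHAF1B window was 3895 ± 129 bp in parental and 2855 ± 368 bp in resistant 451Lu (SD, n = 2), and the libraries did not overlap. The ASF1A window was also shorter in resistant cells, at 1637 ± 6.36 against 1800 ± 190 bp, again without overlap. The other 4 windows were longer in resistant cells, also without overlap. CHAF1A had 3057 ± 136 bp in parental and 3800 ± 43.8 bp in resistant cells, and HIRA 3783 ± 15.6 and 4543 ± 349 bp. All 6 windows thus separated in 451Lu, at RBBP4 by little, with at most 1851 bp in parental and at least 1854 bp in resistant cells. The ASF1A margin was also small, with at least 1665 bp in parental and at most 1641 bp in resistant cells. In WM983B the parental and resistant libraries overlapped in every window, at CHAF1B with 1988 to 2414 and 2045 to 2395 bp. How often other stretches of the genome separate was not tested. Such sums move with how much was listed, and the resistant lists were the longer ones.

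The CHAF1B window also met the only deposited interval that overlapped any of the 6. In the authors' deposited table this interval began at chr21:37800000, ended at 37860000 as deposited, and had a log2 fold change of 1.17 (SE 0.488) with an adjusted p of 0.0238. The authors' deposited table put 74.5% of its 1848 intervals at an adjusted p of at most 0.05, and 1282 intervals had a smaller one. That table names neither its assay nor the group that a positive value favours, so no direction is drawn. The interval spans ATAC-seq regions 7 and 8 of the window.

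In the window of CHAF1A, the gene of the p150 subunit, no open region was gained or lost in resistant cells of either line or in shp150 cells. AP1 cells lost 1 region, CHAF1A region 3, at chr19:4400328-4400757, which scored 5.47 and 3.42 in the vector libraries and was in neither AP1 library. This was 1 of 22 regions of the windows (4.55%), beside 2.86% of all regions. Only 14.4% and 1.49% of peaks scored lower in those vector lists, and the region was listed in 16 of the 20 libraries, both shp150_AP1 libraries included. When the lists were brought to equal length, region 3 was no longer lost and region 4 (chr19:4402327-4402606) was lost in its place, and with the better-scoring 50% of each list none was. The count was 2 without AP1 replicate 1 and 3 without AP1 replicate 2. Parental 451Lu H3K27ac over region 3 scored 40.8, resistant 31.9 and both WM983B libraries 22.2 and 22.3.

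CHAF1A region 5 (chr19:4405585-4406444), chosen after its values were seen, had a pattern tied to the NT and shp150 libraries. It was listed in none of these 4 and in all other 16 libraries. Scores were 35.8 and 31.8 in parental, 41.5 and 29.2 in resistant, 29.6 and 29.1 in vector_NT, 15.4 and 15.8 in shp150_AP1, 18.8 and 13.6 in vector and 10.2 and 9.26 in AP1 cells. The 4 WM983B libraries ranged from 3.91 to 12.4. This exact pattern was shared by 544 regions (0.26% of all). NT is the control of shp150, so the absence is not a difference between hairpin and control. The AP1 lists held 50194 and 55840 peaks and the NT lists 55609 and 53419, and the part of list length in this pattern was not tested. H3K27ac regions 5 and 6 overlapped its ends in 451Lu, with 24.7 and 15.4 in parental and 14.3 and 10.5 in resistant cells.

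The window of RBBP4, the histone-binding subunit that CAF-1 shares with other chromatin complexes, gained 1 region in resistant WM983B. RBBP4 region 5 (chr1:33149832-33150036) scored 3.14 and 2.40 in the resistant libraries and was absent from the other 18. Gained regions of the windows in WM983B were 2 of 47 (4.26%), beside 1.47% of all 201296 regions. None of the 47 was lost, beside 1.22%. The gain was not counted with 50% of the region required to be covered, with lists of equal length or with the better-scoring 50% of each list. Only 13.0% and 1.45% of peaks in those lists scored lower. The count of gained regions was 4 without resistant replicate 1 and 5 without resistant replicate 2, and that of lost regions 3 without resistant replicate 2 or parental replicate 1 and 4 without parental replicate 2.

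A pair of RBBP4 regions, chosen after their values were seen, separated the lines. Region 4 (chr1:33149091-33149311) was listed in all 4 WM983B and no 451Lu library, with 5.03 and 8.46 in parental and 6.55 and 10.2 in resistant cells. H3K27ac region 4 overlapped it in WM983B alone, at 12.01 in parental and 13.8 in resistant cells. The ATAC-seq pattern of all WM983B and no 451Lu libraries held 1 of 40 regions (2.5%), beside 4.7% of all. Region 6 (chr1:33158738-33159292) had the reverse leaning and was listed in 12 of 16 451Lu and no WM983B library, from 4.95 in vector replicate 2 to 40.3 in resistant replicate 2. The 4 451Lu libraries without it were NT replicate 1, AP1 replicate 2 and both shp150 libraries.

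**Figure D3:**
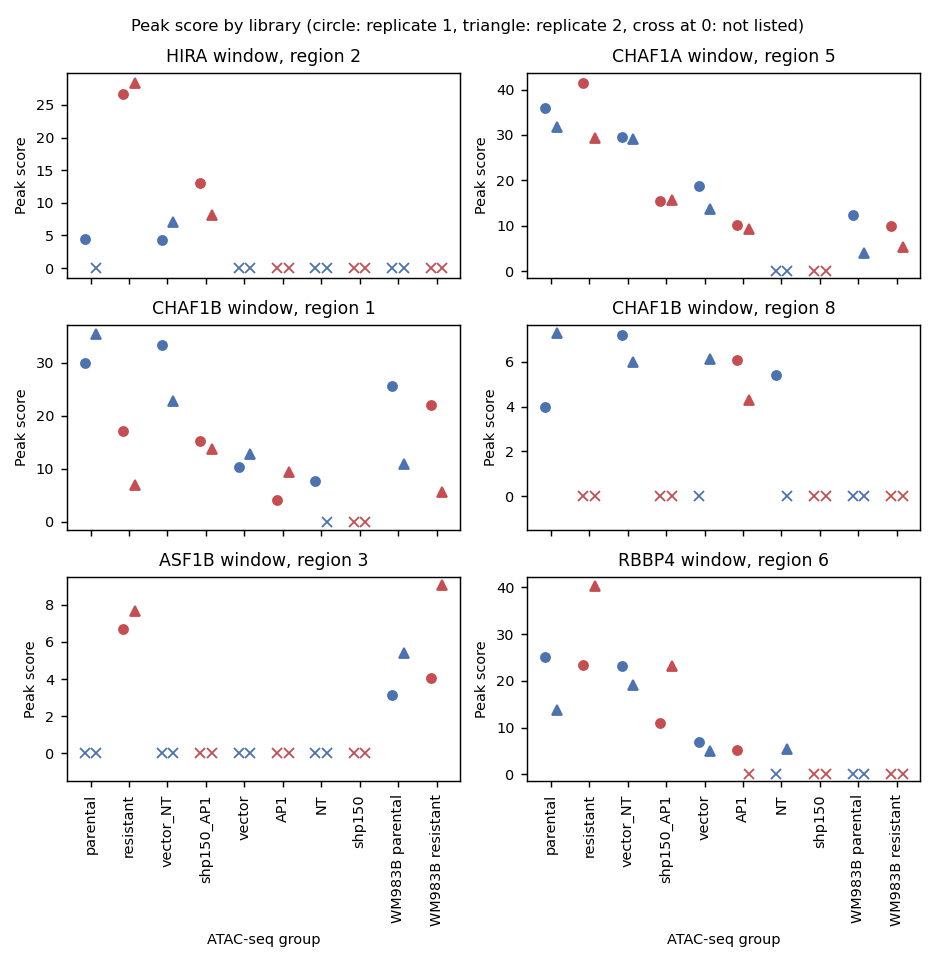
Peak scores of 6 ATAC-seq regions are plotted by group, with blue for parental and control groups, red for resistant and engineered groups, and a cross at 0 where a library does not list the region. Groups without WM983B in their name are 451Lu. HIRA region 2 reached 26.7 and 28.4 in resistant 451Lu cells. CHAF1B region 8 has crosses in all resistant, shp150_AP1, shp150 and WM983B libraries, and also in NT replicate 2 and vector replicate 1.

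In the window of ASF1B, the form of ASF1 found mainly in dividing cells, resistant 451Lu gained 1 open region. There the resistant 451Lu H3K27ac list held more regions than the parental one. ASF1B region 3 (chr19:14250763-14251095) scored 6.67 and 7.63 in the resistant libraries, and was in none of the other 14 451Lu libraries. All 4 WM983B libraries listed it, with 3.14 and 5.42 in parental and 4.08 and 9.04 in resistant cells. The stretch gained in resistant 451Lu was thus listed in parental WM983B as well. It was 1 gained of 28 regions (3.57%), beside 9.79% of all, and 896 regions shared its exact pattern over the libraries. The gain was not counted with the better-scoring 50% of each list. The count of gained regions rose to 3 without resistant replicate 2 and to 4 without parental replicate 1.

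Resistant 451Lu listed 8 H3K27ac regions in the ASF1B window and parental 451Lu 2 of the same 8, beside 54.4% and 33.9% of all H3K27ac regions. Of all regions of that comparison, 50.3% were in the resistant list alone. The 6 regions listed in resistant cells alone scored 2.67, 17.2, 20.3, 12.01, 25.3 and 11.7. Region 5 (chr19:14249783-14250313) and region 6 (chr19:14251096-14251478) flank the gained ATAC-seq stretch, with gaps of 465 and 55 bp, and neither overlaps it. Of all regions gained in resistant 451Lu, 5.02% overlapped an H3K27ac region that the resistant library alone listed. Region 4 (chr19:14248499-14249004), at the edge of the constant ATAC-seq region 2, scored 7.69 in parental and 27.7 in resistant 451Lu. In WM983B parental cells listed 4 and resistant cells 5 of the 8. There region 2 was listed in resistant cells alone at 9.17, region 3 scored 7.51 in parental and 19.8 in resistant cells, and regions 4, 5 and 6 had the higher score in parental cells, region 6 with 16.4 against 6.62. The resistant 451Lu list was longer (51710 peaks, against 32304), and 5 of the 6 stayed resistant-only when the lists were brought to equal length.

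The 451Lu H3K27ac calls of the ASF1A window leaned to the parental list and those of ASF1B to the resistant list. This contrast rests on few regions and 1 library a group and was not tested. The ASF1A window held 2 regions in the parental list, at 9.18 (chr6:119215785-119216408) and 8.34 (chr6:119249306-119249669), and none in the longer resistant list. Of all regions of that comparison, 19.9% were in the parental list alone. Parental WM983B, the longer list of that line, listed 4 regions and resistant WM983B 2. Of all regions in WM983B, 43.8% were in the parental list alone. The 451Lu regions overlapped ATAC-seq regions 1 and 5, which both resistant 451Lu libraries still listed, at 32.5 and 31.0 for region 1 and 14.8 and 16.2 for region 5. Parental libraries gave 37.2 and 43.0 for region 1 and 17.4 and 24.7 for region 5. Thus the open regions stayed in the list where H3K27ac did not. Whether resistant cells had no H3K27ac there or too little to be listed cannot be told apart, since the depth is unknown.

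Over all 6 windows, resistant 451Lu alone listed 14 of 32 H3K27ac regions (43.8%), beside 50.3% of all 64276 regions, and parental 451Lu alone 3 (9.38%), beside 19.9%. In WM983B, resistant cells alone listed 5 of 35 (14.3%), beside 21.2% of 63552, and parental cells alone 13 (37.1%), beside 43.8%. Each share lay below that of all regions, and 15 and 17 regions were listed in both libraries of a line. The longer list of each pair, resistant in 451Lu and parental in WM983B (50336 peaks, against 36022), had the more regions of its own. With lists of equal length the 451Lu counts became 10 and 7 and the WM983B counts 6 and 9. Regions listed in resistant cells alone in 451Lu and in parental cells alone in WM983B were 4 of 42 (9.52%), beside 3.14% of all 93938. By window, regions listed by the resistant library alone in 451Lu were 6 at ASF1B, 3 at CHAF1B, 2 at CHAF1A, 2 at HIRA, 1 at RBBP4 and 0 at ASF1A. Regions listed by the parental library alone in WM983B were 4 at CHAF1A, 4 at HIRA, 2 at CHAF1B, 2 at ASF1A, 1 at RBBP4 and 0 at ASF1B.

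**Figure D4:**
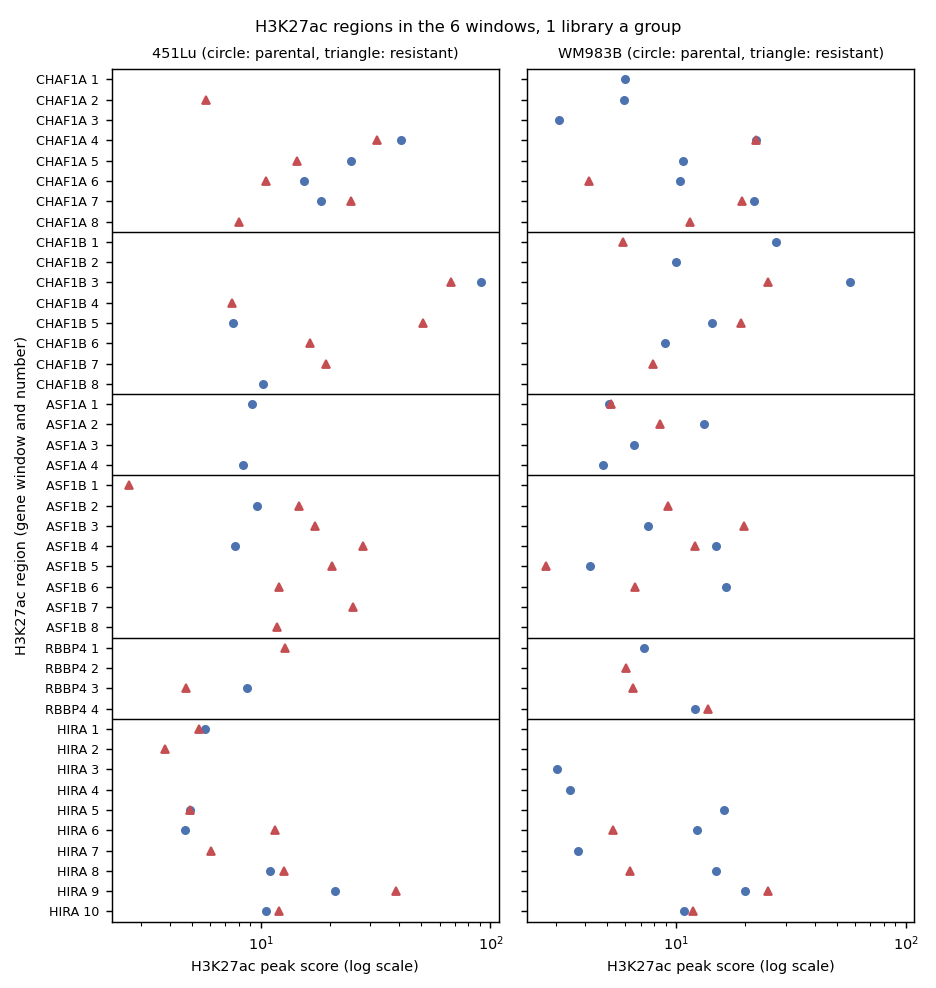
Points give the authors' H3K27ac peak score on a log scale for each of the 42 regions, with circles for parental and triangles for resistant cells and no point where a library does not list the region. In the ASF1B window 8 regions carry a triangle and 2 a circle in 451Lu, and in the ASF1A window 2 carry a circle and none a triangle.

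Open chromatin and H3K27ac coincided in these windows more often than over all regions. Of the 40 ATAC-seq regions, 17 (42.5%) overlapped a listed H3K27ac region, beside 14.4% of all. Among constant ones it was 9 of 11 (81.8%), beside 58.8%. H3K27ac regions listed in all 4 libraries were 10 of 42 (23.8%), beside 12.9% of all, with 4 at HIRA, 3 at CHAF1A, 2 at CHAF1B, 1 at ASF1B and none at ASF1A or RBBP4. The windows were set on genes and all regions were not, and the part of that difference in these shares was not tested.

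The window of HIRA, the chaperone of H3.3, had an open region of uneven score at chr22:19372391-19373183 (region 2), which was chosen after its values were seen. Resistant 451Lu libraries scored 26.7 and 28.4, higher than 75.6% and 77.3% of their lists. Parental replicate 1 scored 4.44, higher than 5.73% of its list, and parental replicate 2 did not list it. In shp150_AP1 cells it scored 13.1 and 8.19 and in vector_NT cells 4.32 and 7.08. Both resistant scores lay above the 1 parental score, and both shp150_AP1 scores above both vector_NT scores. The scores have no common scale between lists, and the share of all regions with this order was not determined. The vector, AP1, NT and shp150 libraries and all WM983B libraries lacked it, a pattern that 54 of all regions shared. Because 1 parental library listed it, it was not counted as gained. It was gained in resistant 451Lu when 50% of the region had to be covered, with the better-scoring 50% of each list, or without parental replicate 1. No H3K27ac region overlapped it in any library.

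In resistant WM983B the HIRA window gained region 5 (chr22:19410753-19410947), which scored 3.25 and 8.02 and was in no other library. No H3K27ac region overlapped it or the gained RBBP4 region, and 1.69% of all regions gained in resistant WM983B overlapped an H3K27ac region listed in its resistant library alone. HIRA region 5 was still gained with lists of equal length, but not with 50% of the region covered or with the better-scoring 50% of each list. HIRA region 4 next to it (chr22:19409906-19410515) was in all 4 WM983B libraries at 6.16 to 10.0, in both resistant 451Lu libraries at 6.90 and 7.08, and in parental 451Lu replicate 1 at 3.73. Region 4 was also named after its values were seen.

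In shp150 against NT cells none of the 21 regions of the windows was gained, beside 0.747% of all 69032 regions, and none was lost, beside 7.51%. No chaperone region therefore met the rule for the hairpin alone. With 50% of the region covered 2 were lost, CHAF1A region 8 and CHAF1B region 6, and with lists of equal length 1 was gained, ASF1B region 5. Lost regions numbered 2 without NT replicate 1 or NT replicate 2 and 1 without shp150 replicate 1, and gained ones 2 without NT replicate 2. None of the 26 regions was gained in shp150_AP1 cells, beside 5.19% of all, and none of 22 in AP1 cells, beside 1.6%.

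H3K9me3 was nearly confined to the HIRA window among the 6 windows, and the exception was 1 island at the edge of the CHAF1B window in shp150_AP1 replicate 1. That island (chr21:37808401-37809800) had a fold of ChIP over input of 1.70. Islands of all 8 libraries merged into 1 domain of 46.2 kb, chr22:19292001-19338200, which began before the edge of the HIRA window and reached into it. CHAF1A, RBBP4, ASF1A and ASF1B had none, so these windows were free of listed islands in the parental, resistant, vector_NT and shp150_AP1 libraries, the groups with H3K9me3 data. The HIRA window was the largest, at 140 kb beside 50 to 80 kb for the others. How many stretches of such sizes hold no island over the genome was not determined.

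The HIRA domain had folds of 2.69 and 2.61 in parental, 1.80 and 1.85 in resistant, 3.01 and 2.87 in vector_NT and 2.51 and 2.34 in shp150_AP1 libraries. Resistant and shp150_AP1 values both lay below those of their controls, with no overlap. The means were 1.83 ± 0.0366 in resistant and 2.65 ± 0.0536 in parental cells (SD, n = 2), a log2 difference of -0.54, and the exact permutation test can give no p below 0.333. For shp150_AP1 and vector_NT they were 2.43 ± 0.117 and 2.94 ± 0.0966 (SD, n = 2), a log2 difference of -0.28. A lower fold in both treated libraries was common, at 56.5% of 18750 regions listed in all 4 libraries for resistant and 30.2% of 25670 for shp150_AP1 cells. The median log2 difference over those regions was -0.29 and -0.10. The domain's differences were larger than most, since 20.1% and 25.4% of regions had a lower log2 difference. Its folds rest on islands that covered from 35600 bp in shp150_AP1 replicate 1 to 45200 bp in resistant replicate 1. The labels name an input library for shp150_AP1 replicate 2 and none for replicate 1, so the input behind the latter fold is not known.

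**Figure D5:**
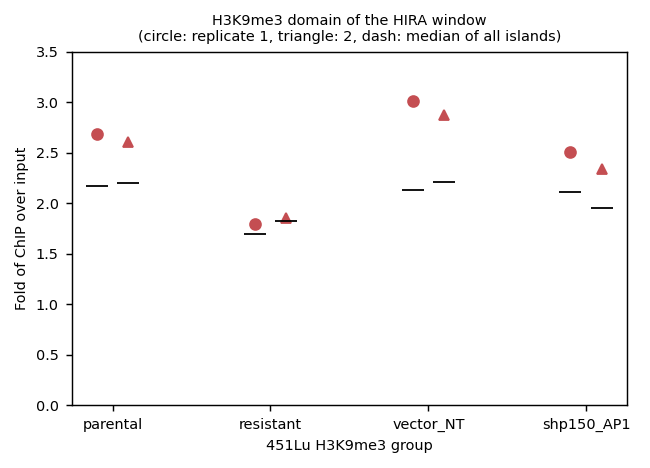
The fold of ChIP over input of the HIRA H3K9me3 domain is plotted for the 8 libraries (circles: replicate 1, triangles: replicate 2), with a dash at the median fold of all islands of that library. Resistant values of 1.80 and 1.85 lie below parental values of 2.69 and 2.61, and the dashes are also lower in resistant cells.

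The other 3 H3K9me3 regions of the HIRA window were weak, with folds of 0.855 to 1.26 and false discovery rates of 0.00179 to 1. No H3K9me3 region of the windows was gained or lost among 4 in either comparison, beside 3.06% gained and 17.7% lost of all regions for resistant and 1.87% and 13.8% for shp150_AP1 cells. The domain overlapped ATAC-seq region 1 of the HIRA window (chr22:19313163-19313397), which was listed in 3 of 4 WM983B libraries and in no 451Lu library. WM983B has no H3K9me3 library here, so the mark and the open region cannot be compared in one line. Reads behind the domain numbered 2497 to 6303 for ChIP and 1658 to 2434 for input.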

How the data were processed

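ATAC-seq, H3K27ac and H3K9me3 lists of 32 libraries were used. Per the submitters' processing notes, Bowtie2, Picard, MACS2, SICER, STAR 2.5.3, deepTools and hg19 were used, with no role or order; how reads were trimmed, deduplicated or shifted is not stated in these sources. The deposited ATAC-seq and H3K27ac lists give a score per peak from the authors' peak caller, whose statistic is not named. The deposited H3K9me3 lists give, per the authors' columns, the read count of ChIP and of input, the fold between them, a p-value and a false discovery rate for each island. Within each library the fold was a fixed multiple of the ChIP-to-input ratio (relative tolerance 1e-05). ChIP reads in islands numbered 11504516 to 31117459 a library. The authors' deposited interval table gives a mean normalized signal, a log2 fold change, its standard error, a test score, a p-value and an adjusted p-value.

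Peaks on chromosomes 1 to 22 and X were merged where they overlapped, over all libraries of an assay or over those of a comparison, so the number of regions in the windows differs between comparisons. A region was listed in a library with at least 1 bp covered, gained when in every treated and no control library, and lost in reverse. Calls were counted with Python 3.11.15, pandas 2.3.3 and numpy 2.4.6, figures drawn with matplotlib 3.10.9, and the counting was checked on simulated lists. No model was fitted to calls. Genes, windows and lists were chosen with earlier results of these data known. Regions named were the best of each window by median place in the lists among those in all 20 libraries, every gained or lost ATAC-seq region, changed H3K9me3 regions and overlapping intervals; H3K27ac regions listed in both libraries of a line, and other regions so marked, were chosen after their values were seen. Alternatives were 50% of a region covered, lists of equal length, the better-scoring 50% of each list, another union and leaving out each replicate. Lists of other chaperone genes and melanoma markers were not used, because the annotation at hand is of GRCh38.p14 and no coordinates were converted; cell identity was therefore not checked against markers.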

Additional observations from a re-analysis of the deposited data

Results flagged for a closer look

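In 4 H3K27ac regions the lines went opposite ways, since each was listed only in the resistant library in 451Lu and only in the parental library in WM983B. They were 9.52% of the 42 regions, beside 3.14% of all 93938. The difference between the lines was not tested, with 1 library a group. At CHAF1A, region 2 (chr19:4386903-4387500) scored 5.75 in resistant 451Lu and 5.91 in parental WM983B. At CHAF1B, region 6 (chr21:37802753-37803151) scored 16.4 in resistant 451Lu and 8.88 in parental WM983B. At RBBP4, region 1 (chr1:33115280-33115616) scored 12.8 and 7.24 in these libraries. At HIRA, region 7 (chr22:19396829-19397178) scored 6.04 and 3.72. In either line the library that listed them had the longer list, with 51710 and 50336 peaks against 32304 and 36022. With lists of equal length CHAF1B region 6 and RBBP4 region 1 kept these calls in both lines. CHAF1A region 2 was then still parental-only in WM983B but no longer resistant-only in 451Lu, and HIRA region 7 was counted in neither line.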

How the results depend on the processing

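Counts of gained and lost regions in the 6 windows are small, and 35 of 120 alternative values moved by more than 1.5 times from the main count, over 18 results. With 50% of the region covered, 451Lu resistant gains became 4, WM983B gains 0, shp150 losses 2 and H3K9me3 resistant gains 1. With the better-scoring 50% of each list, 451Lu resistant losses became 0, WM983B gains 0 and losses 1, AP1 losses 0, shp150_AP1 gains 1 and resistant-only H3K27ac regions in WM983B 3. The 1 region still counted as lost in shp150_AP1 with that 50% was another one, ASF1A region 5, and the 1 still gained in resistant 451Lu was HIRA region 2. With lists of equal length, shp150 gains became 1 and parental-only H3K27ac regions in 451Lu 7. Leaving out each replicate gave ranges of 1 to 4 gains and 1 to 2 losses for 451Lu resistant, 2 to 5 and 0 to 4 for WM983B, 0 to 1 and 1 to 3 for AP1, 0 to 2 and 0 to 2 for shp150, 0 to 0 and 1 to 4 for shp150_AP1, 0 to 2 and 0 to 0 for H3K9me3 in resistant and 0 to 1 and 0 to 1 for H3K9me3 in shp150_AP1 cells. A group with 1 library left meets the rule more easily by its construction. H3K27ac had 1 library a group, so none could be left out. No paired analysis was possible because the counts come from no test. A change required within both same-numbered pairs of libraries is the same rule as the one used here, so pairing by number leaves the gains and losses as they are. Sequencing depth is unknown for the peak lists, so a region that is not listed may be present below the threshold of its list.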
